A study of Mus musculus with 8 samples.

Results

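The 86 genes described here are those named for the mitochondrial respiratory chain and the ATP synthase, nearly all of them subunits. They were chosen by symbol from the deposited sense-strand gene table of 20741 genes: symbols that begin with Nduf, Uqcr, Atp5 or Cox4 to Cox8, and Sdha to Sdhd. Of 89 such symbols, 86 held at least 10 reads in at least 2 libraries, as did 15217 genes of the whole table. Cox6a2, Cox7b2 and Cox8b fell below that minimum. By complex, the members comprised 7 core subunits, 29 accessory subunits and 4 assembly factors of complex I, 4 subunits of complex II, 8 of complex III, 16 of complex IV and 15 of the ATP synthase (complex V). The other 3 were placed outside these groups: Atp5s, Atp5sl, an assembly factor of complex I, and Cox4nb, a subunit of a membrane complex of the endoplasmic reticulum.

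The RNA came from the suprachiasmatic nucleus (SCN), the pacemaker of the hypothalamus, of C57/BL6 mice kept in light-dark cycles and then moved to complete darkness. Each of the 8 libraries, taken 6 h apart over 2 days, was a pool of RNA from 3 animals in equal parts. This gave 2 libraries, 24 h apart, at each of 4 circadian times (CT). Those at CT4 and CT10 fell in the subjective day, and those at CT16 and CT22 in the subjective night. All mice shared the strain and the darkness, and no other treatment is labelled. The labels state no replicates, so p-values rest on the spread between pooled libraries, not between mice. That spread holds the differences between the 2 cycles and the departure of the 4 times from the fitted 24-h shape. Collection is labelled as starting at CT18, whereas the first library is titled CT22. The comparisons ask whether transcripts of the respiratory machinery followed circadian time.

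Complexes I and II pass electrons from NADH and succinate to ubiquinone, complex III passes them to cytochrome c, and complex IV (cytochrome c oxidase) passes them to oxygen. Complexes I, III and IV pump protons across the inner mitochondrial membrane, and the ATP synthase uses the gradient to make ATP. Neurons draw most of their ATP from this machinery, and firing of SCN neurons is high by day and low by night. A few subunits of the chain are encoded by mitochondrial DNA; those genes are not analysed here.

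Each library held 11123610 to 11131890 sense reads on genes. SCN markers were present throughout (8 of 8, summed level 486 to 959 CPM, the reads of a gene scaled to a fixed library size), and so were neuronal markers (8 of 8, 3199 to 4401 CPM). All 12 oligodendrocyte markers were detected, with a summed level of 5112 to 15983 CPM. In these bulk samples, fewer cells of a type and less RNA per cell cannot be told apart. Libraries of the first cycle are called replicate 1 and those of the second replicate 2, a numbering that pairs no samples. A pair of libraries stood apart for these genes: replicate 1 of CT10, with high glial and arcuate marker levels, and replicate 1 of CT22, with many more reads in first exons. Values without them are given beside the results that they move most.

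The members were abundant: together they took 8966 to 10620 CPM of a library, and a single member averaged between 0.493 CPM (Cox4i2) and 939 CPM (Atp5b). Levels between genes are compared per kilobase of exon. With the merged exons of the deposited exon table as length, the median over members was 45.2 CPM per kb for core subunits of complex I, 59.6 for its accessory subunits and 13.0 for its assembly factors. The median was 51.8 CPM per kb for complex II, 86.2 for complex III, 88.3 for complex IV and 73.7 for the ATP synthase. The 4 assembly factors, which build complex I but are not part of it, thus stood lowest on this scale.

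**Figure D1:**
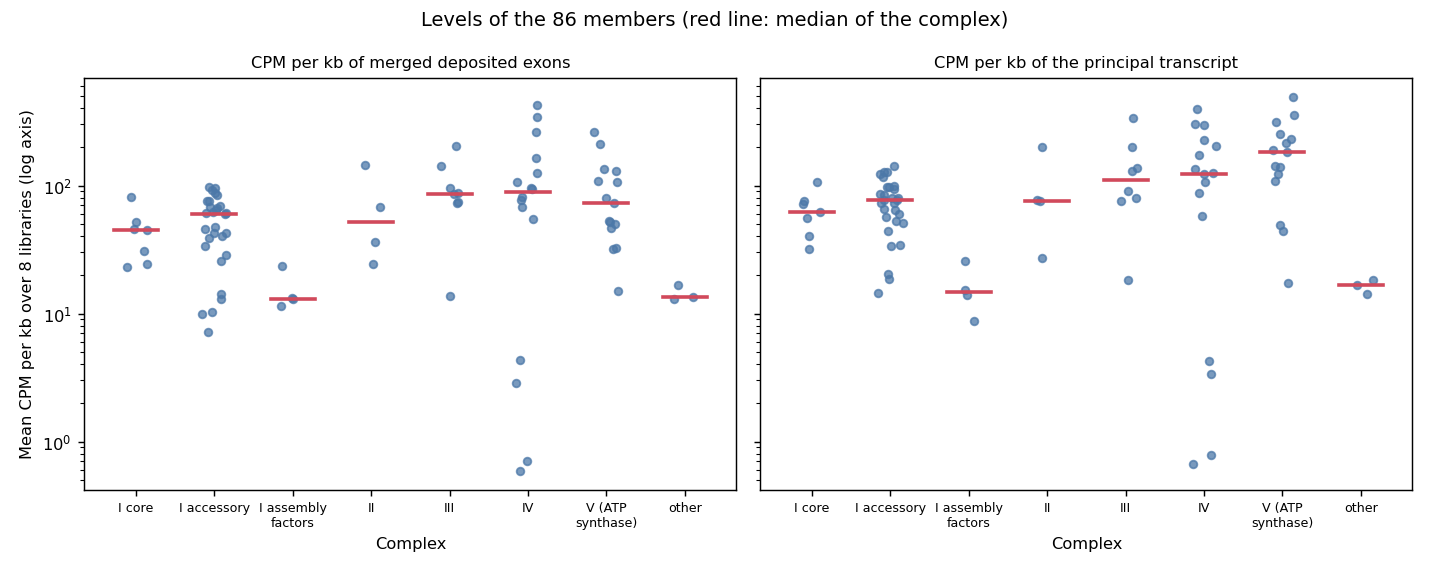
Mean level of each member over 8 libraries by complex, in CPM per kb on a log axis, with the merged exons of the deposited table (left) or the principal transcript (right) as length; points are genes and red lines are medians. Assembly factors sit lowest among the complexes on both scales, and complex IV spreads widest, with 4 members below 5 CPM per kb.

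Some merged exon lengths ran to several kilobases (7267 bases for Ndufab1), so the order was also taken per kb of the principal transcript of each gene in GENCODE M21. On that scale, chosen after the data were seen, the ATP synthase had the highest median (182 CPM per kb), followed by complex IV (124) and complex III (110). Assembly factors were again lowest (14.6 CPM per kb). The highest single levels per kb of principal transcript were those of Atp5b (490), the catalytic beta subunit of the ATP synthase, and Cox4i1 (394), the usual form of complex IV subunit 4. With merged exons instead, Cox4i1 came first (426 CPM per kb), Cox6b1, another complex IV subunit, second (343), and then Atp5a1, the alpha subunit of the ATP synthase (264).

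Within complexes, the subunits at the ends of the range were as follows, per kb of merged exons. Ndufs7, which lies on the electron path to ubiquinone, was lowest (23.2) among core subunits of complex I. In complex II, Sdha, the flavoprotein that oxidises succinate, stood at 145 CPM per kb and Sdhc, a membrane anchor, at 24.4. In complex III, Uqcrb was highest (204) and Uqcrq lowest (13.8), both small subunits around the catalytic core. Which gene is highest or lowest changed with the length used in some complexes: Uqcrh rather than Uqcrb led complex III per kb of principal transcript (337 against 201), and Ndufs8 rather than Ndufs7 was lowest in the complex I core (31.9 against 40.3).

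Alternative forms of a subunit differed widely in level, given here in mean CPM per kb of merged exons. Cox4i1 stood at 426 CPM per kb against 0.590 for Cox4i2, the form known from lung and from low oxygen. Cox7a2, the general form of subunit 7a, stood at 165 CPM per kb, its relative Cox7a2l, an assembly factor of respiratory supercomplexes, at 106, and the heart and muscle form Cox7a1 at 4.33. Cox6b1 stood at 343 CPM per kb and the testis form Cox6b2 at 2.85. Ndufa4 stood at 262 CPM per kb and its relative Ndufa4l2, known as induced by low oxygen, at 0.699. The muscle forms Cox6a2 and Cox8b, below the count minimum, had at most 12 and 4 reads in a library, whereas Cox6a1 and Cox8a stood at 67.5 and 124 CPM per kb. Atp5g1, Atp5g2 and Atp5g3 encode the same mature c subunit of the ATP synthase rotor. They stood at 14.9, 53.2 and 80.1 CPM per kb of merged exons, and at 17.3, 49.2 and 255 per kb of principal transcript, the same order on both scales. How reads shared with near-identical copies were assigned is not given in the sources used here, so these splits carry that uncertainty.

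Promoters of nuclear respiratory genes are known for sites of NRF1, of ETS factors such as GABP (NRF2) and of YY1. Windows from 250 bases before to 50 bases after the start were found in the RefSeq table (GRCm38.p6) for 72 of the 86 members, 69 by symbol and 3 by an older symbol. Both strands were searched for the NRF1 consensus, CCGGAAG (ETS), AANATGGCG (YY1, whose letters include a start codon), and 4 clock-related motifs: CACGTG (E-box), TTANGTAA (D-box), the REV-ERB and ROR element and TGACGTCA (cAMP response element). No 2 different motifs overlapped in a member window. The NRF1 letters were in 25.0% of the matched members, against 10.4% of the 10535 genes tested here that had a window. The ETS letters were in 23.6% of members against 17.3% of those genes, and the YY1 letters in 15.3% against 5.16%. At least 1 of these 3 motifs was in 40 of 72 members (55.6%), against 28.7% of the tested genes.

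The E-box was in 9.72% of members against 11.4% of tested genes, the D-box in 2.78% against 1.86%, the cAMP response element in 5.56% against 3.50%, and the REV-ERB and ROR element in none of 72 members against 0.161%. Median GC content of the windows was 58.5% for members and 60.7% for the tested genes. A match is only a match of letters. The 6 member windows with 2 of the NRF1, ETS and YY1 motifs are shown because they carry this pattern most densely, with the matches in capitals. All lie on the minus strand and read 5′ to 3′ towards and into the gene: Ndufs6 (chr13:73328433-73328732) of complex I, Sdhd (chr9:50603800-50604099) of complex II, Cox6a1 (chr5:115348909-115349208) of complex IV, and Atp5h (chr11:115419870-115420169), Atp5j (chr16:84834927-84835226) and Atp5k (chr5:108434350-108434649) of the ATP synthase.
Ndufs6: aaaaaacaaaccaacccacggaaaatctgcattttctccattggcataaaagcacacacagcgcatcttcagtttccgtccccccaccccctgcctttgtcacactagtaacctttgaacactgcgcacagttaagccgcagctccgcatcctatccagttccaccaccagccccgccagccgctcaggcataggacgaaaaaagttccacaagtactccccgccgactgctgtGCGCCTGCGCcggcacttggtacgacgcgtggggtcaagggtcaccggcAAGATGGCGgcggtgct
Sdhd: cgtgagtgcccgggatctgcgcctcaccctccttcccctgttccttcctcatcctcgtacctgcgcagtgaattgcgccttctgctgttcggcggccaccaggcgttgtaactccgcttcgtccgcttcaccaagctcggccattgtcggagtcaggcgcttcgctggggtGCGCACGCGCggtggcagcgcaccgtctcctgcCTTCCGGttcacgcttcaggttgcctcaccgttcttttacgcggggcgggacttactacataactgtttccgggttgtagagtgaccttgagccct
Cox6a1: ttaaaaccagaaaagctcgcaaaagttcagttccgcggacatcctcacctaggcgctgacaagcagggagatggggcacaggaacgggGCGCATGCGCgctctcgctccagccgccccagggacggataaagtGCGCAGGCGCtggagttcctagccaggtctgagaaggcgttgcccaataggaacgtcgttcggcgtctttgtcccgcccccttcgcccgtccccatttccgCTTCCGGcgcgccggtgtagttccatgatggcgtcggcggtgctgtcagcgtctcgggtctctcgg
Atp5h: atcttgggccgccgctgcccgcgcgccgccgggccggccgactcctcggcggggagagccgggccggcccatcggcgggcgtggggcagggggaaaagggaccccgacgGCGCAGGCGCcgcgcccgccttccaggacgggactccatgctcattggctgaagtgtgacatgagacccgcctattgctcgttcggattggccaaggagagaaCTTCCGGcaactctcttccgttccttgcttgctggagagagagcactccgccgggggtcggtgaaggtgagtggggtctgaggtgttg
Atp5j: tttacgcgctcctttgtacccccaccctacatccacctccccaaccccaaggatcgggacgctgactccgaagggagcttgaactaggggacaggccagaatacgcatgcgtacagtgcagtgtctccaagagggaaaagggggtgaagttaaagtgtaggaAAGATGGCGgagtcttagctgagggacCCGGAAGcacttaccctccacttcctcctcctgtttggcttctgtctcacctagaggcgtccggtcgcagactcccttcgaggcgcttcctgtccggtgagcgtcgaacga
Atp5k: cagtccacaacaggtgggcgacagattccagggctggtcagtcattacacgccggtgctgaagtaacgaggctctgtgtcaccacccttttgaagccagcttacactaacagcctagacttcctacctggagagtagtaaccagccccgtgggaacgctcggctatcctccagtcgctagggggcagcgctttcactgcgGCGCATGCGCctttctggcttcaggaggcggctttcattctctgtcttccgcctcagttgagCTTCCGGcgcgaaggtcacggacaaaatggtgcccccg

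Across circadian time the members differed little between libraries. Of the 82 members with a mean of 10 CPM or more, the highest library exceeded the lowest by a median of 1.37 times, against 1.39 times for all 10453 genes of that level. The fit asked for a 24-h cosine of free phase, built from 2 terms. The day-night term set CT4 and CT10 over CT16 and CT22. The dusk-dawn term set CT10 and CT16 over CT22 and CT4. No member passed an adjusted p of 0.05 in the joint test by edgeR's quasi-likelihood test, where 17 of all 15217 genes (0.112%) did. No member passed by DESeq2 either, which gave Cox7a1 no adjusted p, where 98 genes (0.644%) did. At an unadjusted p under 0.05, edgeR gave 3 members, Ndufb2, Cox7a1 and Ndufa4 (3.49%), against 8.6% of all genes. DESeq2 gave the same 3 members, against 8.25% of genes. Without CT22 replicate 1 the count was 10 of 86 members, a share above the 10.3% of genes in that fit. Without CT16 replicate 1 the count was 7 of 86 (12.2% of genes). With no count minimum, 3 members, Ndufb2, Cox8a and Uqcrq, had an adjusted p under 0.05 by edgeR, in a fit that called 1.75% of genes, and 8 had an unadjusted one, against 9.39% of genes.

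For scale, the fitted peak-to-trough ratio of clock genes in the same libraries was 3.12 for Dbp, 2.45 for Per1, 2.42 for Per2 and 2.12 for Nr1d1. The median ratio was 1.16 over members and 1.23 over all genes tested. Low-count Cox7a1, given further on, had a larger ratio than each of these clock genes. The 95% intervals of both the day-night and the dusk-dawn fold lay within 1.5-fold either way for 76 of 86 members. The same held for 9105 of the 15217 genes tested. The 10 whose intervals reached further were Ndufb2, Ndufaf3, Uqcrq, Cox5b, Cox6a1, Cox8a and the 4 complex IV members below 10 CPM, Cox7a1, Cox4i2, Ndufa4l2 and Cox6b2. These intervals are per gene and not adjusted for the number of genes.

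**Figure D2:**
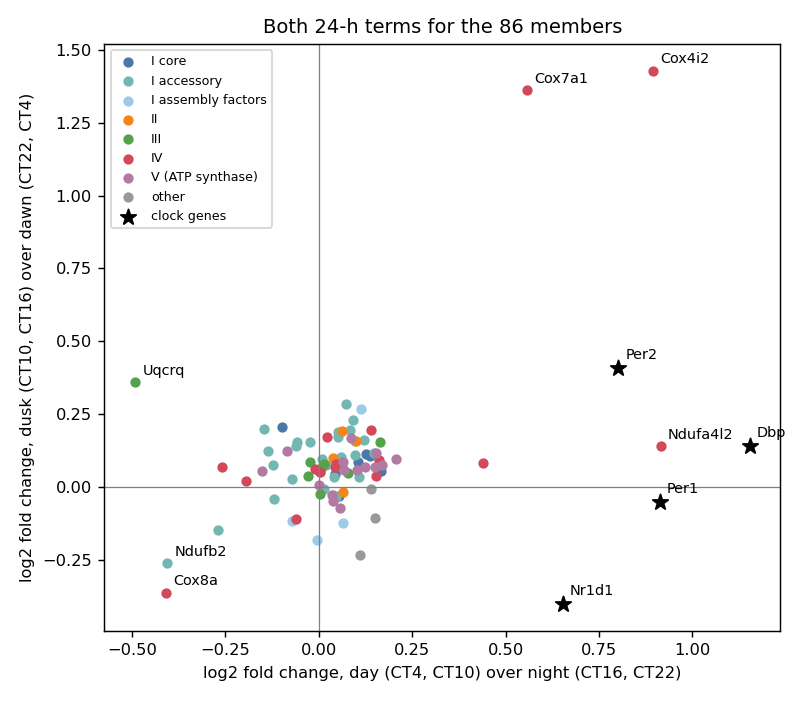
Fitted log2 fold change of each member by day over night (horizontal) and at dusk over dawn (vertical), coloured by complex; stars are 4 clock genes. Most members cluster near 0, with medians of 0.05 by day and 0.08 at dusk, and the members far from the centre are Ndufb2, Uqcrq, Cox8a and low-count complex IV genes.

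By day against night, the fitted fold was above 1 for 63 of 86 members, against 7311 of 15217 genes tested. Its median was 1.04-fold over the members, against 0.994-fold over all genes tested. Without CT10 replicate 1 the median day-night change of the members was 0.0014 on the log2 scale, and without CT4 replicate 2 or CT22 replicate 1 it was 0.09 or 0.10, against 0.05 with all 8 libraries. No member was called after adjustment (16 genes, 0.105%), and at an unadjusted p under 0.05 none was higher by day (2.75% of genes) and 2 were lower, Ndufb2 and Ndufab1 (4.97% of genes). DESeq2 gave 1 lower by day (4.25% of genes). With no count minimum, 1 was higher by day (2.75% of genes) and 5 were lower (4.27% of genes). At dusk against dawn, the fold was above 1 for 66 members, against 7819 of 15217 genes. Its median was 1.05-fold over the members, against 1.004-fold over all genes. On the log2 scale the median of the members was 0.08. It was 0.02 without CT10 replicate 1, 0.03 without CT4 replicate 2 and 0.12 without CT22 replicate 1. No member was called after adjustment (3 genes, 0.0197%). At an unadjusted p, 5 were higher at dusk, Cox7a1, Ndufa5, Ndufa4, Ndufa11 and Sdhb (4.2% of genes), and Ndufb2 was lower (3.64% of genes). DESeq2 gave 3 higher at dusk (3.44% of genes), and with no count minimum 2 were lower at dusk (3.56% of genes). Without CT22 replicate 1 the count higher at dusk was 15 of 86 members, against 6.03% of genes. It was 8 of 86 without CT16 replicate 1 (6.5%) and 1 of 85 without CT10 replicate 1 (2.53%). In a 12-h contrast of CT4 and CT16 with CT10 and CT22, 7 members had an unadjusted p under 0.05 and none an adjusted one (7.47% of genes unadjusted).

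In the mean of both cycles the small shifts leaned towards CT10. The mean CPM was highest at CT10 for 57 of 86 members (66.3%), against 29.8% of the tested genes, and lowest at CT4 for 39 (45.3%), against 29.5%. Taken cycle by cycle, CT10 was the highest time for 34 members (39.5%) in the second cycle and for 53 (61.6%) in the first, against 26% and 28.2% of tested genes. Only 29 members (33.7%) had the same highest time in both cycles, against 28.9% of tested genes. That time was CT10 for 24 members (27.9%), against 9.84% of tested genes. Without replicate 1 of CT10, CT10 was highest for 39 members (45.3%, against 30.8% of genes). In replicates 1 and 2 the oligodendrocyte marker score (mean log2 deviation over 12 genes) was -0.92 and -0.21 at CT4 and 0.593 and 0.352 at CT10. It was -0.34 and 0.485 at CT16, and -0.03 and 0.08 at CT22. Replicate 1 of CT10 was thus the highest of the 8 libraries and replicate 1 of CT4 the lowest. The part of glial RNA in the result was not tested, beyond the fit with that score as a term, where the median dusk-dawn change of the members was 0.02 on the log2 scale.

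The score of a complex is the mean over its members of log2 CPM minus each member's own mean. Over all 86 members the scores in replicates 1 and 2 were -0.03 and -0.13 at CT4, 0.20 and 0.06 at CT10, -0.06 and -0.02 at CT16, and 0.08 and -0.09 at CT22. Both CT10 libraries stood above 0, but the CT22 libraries differed from each other by more than CT10 replicate 2 differed from 0. The core of complex I read 0.13 and 0.10 at CT10, complex II 0.17 and 0.04, complex III 0.18 and 0.07, and the ATP synthase 0.20 and 0.02. Replicate 1 of CT10 was the highest library in each of these, whereas replicate 2 was exceeded by replicate 1 of CT22 in complex III (0.17) and in the ATP synthase (0.03), and by replicate 1 of CT16 in complex II (0.08). The accessory subunits of complex I read 0.17 and 0.01 at CT10, against 0.11 in replicate 1 of CT22.

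Complex IV had the largest CT10 scores, 0.36 and 0.22, against -0.19 to 0.12 in the other 6 libraries. Its 4 members below 10 CPM carried much of this: over the other 12 members the CT10 scores were 0.235 and 0.00313, and replicate 1 of CT22 read 0.249. The 4 assembly factors of complex I read 0.10 and -0.06 at CT10. The 3 genes placed outside these groups ran otherwise, with their highest scores at CT4, 0.19 and 0.14.

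**Figure D3:**
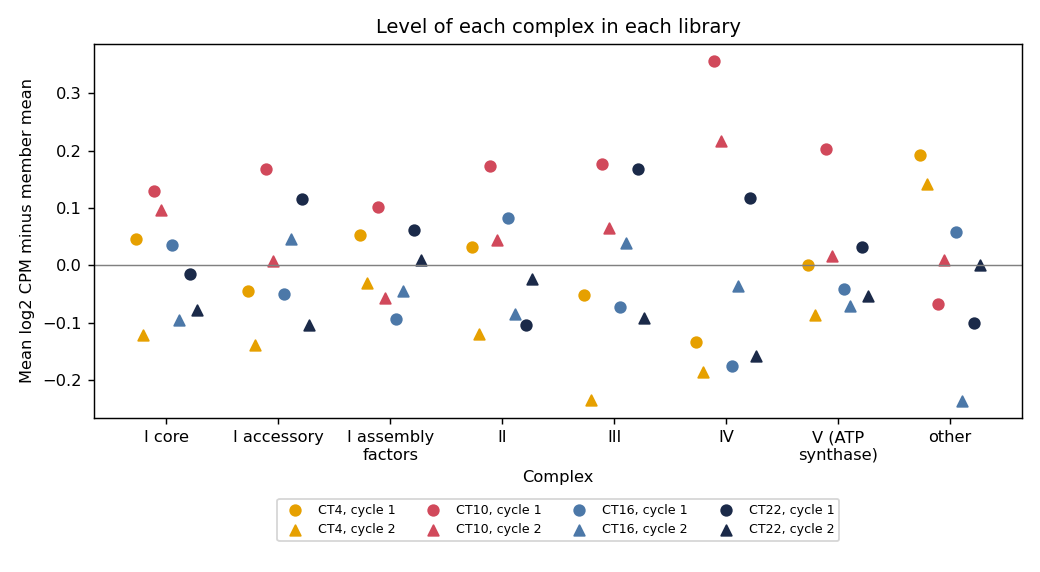
Score of each complex (mean over members of log2 CPM minus the member's mean) in each of the 8 libraries, coloured by circadian time, with circles for the first cycle and triangles for the second. CT10 circles lie highest in every complex but not in the genes placed outside them (other), while the CT10 triangle of the ATP synthase lies at 0.02.

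Of complex I, Ndufb2, a small accessory subunit of the membrane arm, had the lowest p of all members. It read 56.3, 62.5, 49.6 and 49.5 CPM in the CT4 and CT10 libraries of the day, against 72.6, 58.8, 91.4 and 66.0 CPM in the CT16 and CT22 libraries of the night. Both CT10 libraries were lowest, CT22 replicate 1 was highest, and 1 night library, CT16 replicate 2, lay within the day range. The day-night fold was 0.755 (95% interval 0.641 to 0.889; log2 standard error 0.11), with an unadjusted p of 0.00227 and an adjusted p of 0.302 by edgeR. The fitted peak was at CT21.2 with a peak-to-trough ratio of 1.61. Ndufb2 is among the genes with many first-exon reads in CT22 replicate 1, given further on. Counting the last exon only, in its form of 4390 bases, the day-night fold of Ndufb2 was 0.774, with an adjusted p of 0.399 by edgeR. A shorter form of that exon (chr6:39549391-39549478 on mm9) held 129, 115, 125 and 120 reads by day. By night it held 118, 99, 161 and 125 reads, so day and night overlapped in the shorter form. Without CT22 replicate 1 the fold of Ndufb2 over all exons was 0.813 (adjusted p = 0.52 by edgeR).

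Ndufab1, the acyl carrier protein of complex I, read 59.8, 75.1, 64.1 and 60.0 CPM by day, against 75.5, 71.5, 102 and 63.8 CPM by night. CT22 replicate 1 alone stood above the rest, and the groups overlapped. The day-night fold was 0.829 with an adjusted p of 0.64 by edgeR. Without that library the fold of Ndufab1 was 0.927. On the last exon only, which spans 3229 bases and held 48 to 94 reads a library, the fold of Ndufab1 was 0.970. Ndufa5, an accessory subunit of the peripheral arm, read 75.3, 71.3, 70.7 and 71.4 CPM at dusk, against 62.3, 58.4, 66.2 and 65.1 CPM at dawn. Every dusk library lay above every dawn library, by a fold of 1.15 (adjusted p = 0.597 by edgeR). Ndufa11, a membrane-arm subunit, read 60.8, 53.5, 45.9 and 46.9 CPM at dusk, against 51.5, 37.9, 42.6 and 37.3 CPM at dawn. CT22 replicate 1 was the dawn library within the dusk range, and the fold was 1.22 (adjusted p = 0.608 by edgeR). For Ndufa11 the fold was 1.34 without that library and 1.15 without CT10 replicate 1.

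Among the core subunits of complex I the highest library exceeded the lowest by 1.19 to 1.47 times. The lowest 24-h p-values among them were those of Ndufv2 (0.156) and Ndufv1 (0.158), which form the NADH-binding end of the complex, and Ndufs7 (0.185). Ndufv1 read 132 and 109 CPM at CT4, 134 and 128 CPM at CT10, 122 and 114 CPM at CT16, and 113 and 109 CPM at CT22. The 2 CT4 libraries of Ndufv1 nearly spanned its whole range. Among the assembly factors, the largest ratio between libraries was 1.94, in Ndufaf3.

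In complex II, Sdhb, the iron-sulfur subunit, read 94.6, 96.0, 89.3 and 93.4 CPM at dusk, against 83.4, 76.6, 92.1 and 74.9 CPM at dawn. A single dawn library, CT4 replicate 1, lay within the dusk range, and the fold was 1.14 (adjusted p = 0.631 by edgeR). Sdha read 548 to 630 CPM in 7 libraries and 497 CPM in replicate 2 of CT16. In complex III, Uqcrc1, a core protein, had the lowest 24-h p (0.116): it read 151 and 150 CPM at CT10 and 102 to 129 CPM elsewhere. Without CT10 replicate 1 the 24-h p of Uqcrc1 was 0.400.

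Uqcrq, a small subunit of complex III next to ubiquinone binding, had the widest ratio outside complex IV, 2.87. It read 16.2 and 16.6 CPM at CT4, 32.7 and 29.0 CPM at CT10, 19.4 and 41.0 CPM at CT16, and 46.6 and 20.8 CPM at CT22. Thus 4 libraries stood at 29.0 CPM or more and 4 at 20.8 CPM or less, and both CT16 and CT22 had 1 library in each range. The 24-h p was 0.136 (adjusted 0.68, edgeR). Without CT22 replicate 1 it was 0.0066 (adjusted 0.336, edgeR), with a dusk-dawn fold of 1.69 for Uqcrq.

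In complex IV, Cox7a1 had the largest fold among members with an unadjusted p under 0.05. It read 2.93, 2.87, 2.01 and 1.79 CPM at dusk, against 0.626, 0.909, 0.987 and 1.17 CPM at dawn, from 7 to 33 reads a library. Both CT10 libraries were highest, both CT22 libraries lowest, and dusk and dawn did not overlap. The dusk-dawn fold was 2.57 (95% interval 1.43 to 4.62), with an unadjusted p of 0.00365 and an adjusted p of 0.403 by edgeR. The fitted peak was at CT11.5 with a ratio of 4.23. On the last exon alone, Cox7a1 held 20 and 20 reads at CT10, 12 and 6 at CT16, 2 and 5 at CT22, and 13 and 14 at CT4. There both CT4 libraries lay above both CT16 libraries, so dusk and dawn overlapped on that count. Cox4i2 was also highest at CT10, on 2 to 13 reads: 1.16 and 1.08 CPM at CT10, against 0.179 to 0.365 CPM in the other 6 libraries, with a 24-h p of 0.0599 (adjusted 0.595, edgeR). Its last exon alone held 2 and 6 reads at CT10, against 1 to 5 in the other 6 libraries, so CT10 replicate 1 was not high there.

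Cox7a1 is a muscle form, and Cox4i2 and Ndufa4l2 are known from mural cells of brain vessels. The mural marker score (5 of 5 genes detected) was -0.27 and 0.44 at CT4, 0.10 and 0.01 at CT10, -0.10 and -0.01 at CT16, and -0.26 and 0.10 at CT22. The summed level of the mural markers was 164 and 233 CPM at CT4, 232 and 207 CPM at CT10, 184 and 212 CPM at CT16, and 174 and 216 CPM at CT22. Of 4 muscle markers 3 were found, with a summed level of 1.62 to 5.37 CPM, 2.49 and 4.67 CPM of it at CT10. Ndufa4l2 read 0.977 and 1.62 CPM at CT10 and 0.268 to 0.895 CPM elsewhere. The part of these cells in the result was not tested.

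Ndufa4, now counted as a subunit of complex IV, read 172, 142, 133 and 141 CPM at dusk, against 122, 126, 136 and 128 CPM at dawn. CT10 replicate 1 was highest, CT4 replicate 1 lay within the dusk range, and the dusk-dawn fold was 1.15 (adjusted p = 0.597 by edgeR). Without CT10 replicate 1 the 24-h p of Ndufa4 was 0.310, against 0.0358 with it. Cox8a, the general form of subunit 8, read 61.8 and 43.7 CPM at CT4, 80.9 and 60.6 CPM at CT10, 43.7 and 65.3 CPM at CT16, and 182 and 56.4 CPM at CT22. A single library, CT22 replicate 1, set its highest-to-lowest ratio of 4.17. Its 24-h p was 0.195 (adjusted 0.72). The day-night fold of Cox8a was 0.754, and without that library it was 1.14 (24-h p 0.254, adjusted 0.681, edgeR).

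**Figure D4:**
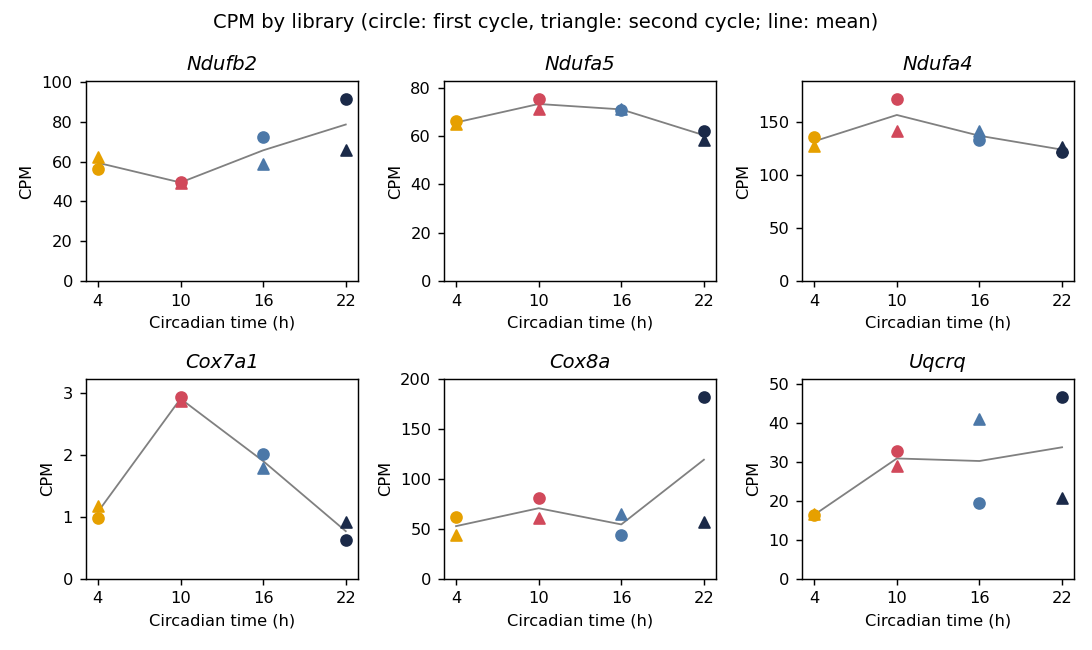
CPM of 6 members at each circadian time, with circles for the first cycle, triangles for the second and a line through the means. Ndufb2 is lowest at CT10, Ndufa5, Ndufa4 and Cox7a1 are highest there, Cox8a rests on the CT22 circle at 182 CPM, and Uqcrq splits within CT16 and CT22.

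In the ATP synthase, no member had a 24-h p under 0.05. The lowest were those of Atp5o (0.106), the stalk subunit that confers oligomycin sensitivity, Atp5g1 (0.107) and Atp5l (0.203), subunit g of the membrane part. Atp5o read 162 and 151 CPM at CT4, 194 and 160 CPM at CT10, 159 and 146 CPM at CT16, and 145 and 148 CPM at CT22. CT10 replicate 1 stood above all others, and the remaining 7 libraries spanned 145 to 162 CPM. Without that library the 24-h p of Atp5o was 0.588. The beta and alpha subunits were flat: Atp5b had a fitted peak-to-trough ratio of 1.04 and Atp5a1 of 1.12. For both the lowest library was CT16 replicate 2 (787 and 740 CPM). Atp5e, subunit epsilon, had a ratio of 1.01.

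The authors' deposited table gives its own rhythm test (JTK) per gene. In the authors' deposited table, Cox7a1 and 2 other members (3.49%) had an adjusted p under 0.05, against 3.36% of the genes tested here and 2.68% of all genes listed: Cox7a1 (0.00694, peak listed at 13 h), Atp5o (0.0220, 10 h) and Cox4nb (0.0220, 7 h). The q-value in the authors' deposited table, which allows for the number of genes, was 0.978 for each. Cox4nb is one of the genes placed outside the complexes.

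The second cycle read slightly lower than the first. The fitted fold of the second over the first cycle was below 1 for 75 of 86 members, with a median of 0.935, against 7345 of 15217 genes and a median of 1.005. With all 8 libraries, no member, and no gene, was called after adjustment by edgeR (0%). At an unadjusted p under 0.05, 7 members (8.14%) were lower in the second cycle, against 1.41% of genes lower and 3.57% different in either direction: Uqcrh, Ndufaf2, Cox5a, Ndufb8, Atp5l, Sdhc and Cox8a. Uqcrh, the hinge protein of complex III, averaged 168 ± 11.6 CPM in the second cycle and 200 ± 18.7 CPM in the first (SD, n = 4 each), a fold of 0.839 (adjusted p = 0.999 by edgeR). The first cycle holds both libraries that stood apart. The count of members lower in the second cycle at an unadjusted p was 1 without CT10 replicate 1 (1.94% of genes), 3 without CT22 replicate 1 (1.53%) and 0 of 84 without both (2.6%). Without both, the fold was below 1 for 55 of 84 members, against 7522 of 14985 genes (50.2%). In that fit 117 genes (0.781%) were called between the cycles after adjustment by edgeR. The median change of the members was then -0.04 on the log2 scale, against -0.10 with all 8 libraries. The count also moved with other libraries: it was 22 without CT16 replicate 1 (2.67% of genes), 3 without CT16 replicate 2 (1.49%) and 1 without CT4 replicate 2 (0.714%).

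Reads were spread unevenly along many of these short transcripts, and the spread differed by library. In Cox5b, subunit 5b of complex IV (chr1:36748312-36750248 on mm9), the first exon held 303 reads in CT22 replicate 1 and 3 to 21 reads in the other 7 libraries. The second exon held 575 against 72 to 171 reads, and the next exon 670 against 241 to 441. The last exon held 485 reads in CT22 replicate 1, within the 349 to 552 of the others. Junction reads followed: the 3 junctions of Cox5b held 290, 291 and 289 reads in CT22 replicate 1, whereas in CT10 replicate 1 they held 13, 125 and 268. The 3 junctions thus held nearly equal reads in CT22 replicate 1, whereas in each of the other 7 libraries the first junction held the fewest and the last the most.

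Cox5a, the partner subunit (chr9:57369021-57380245 on mm9), showed the same: 222 first-exon reads in CT22 replicate 1 against 0 to 6, and 328 last-exon reads against 354 to 449. The Ndufb2 first exon held 87 reads against 0 to 2, that of Atp5b 373 against 7 to 117, and that of Cox8a 773 against 16 to 201. In Cox8a the last exon was high too, 1978 reads against 458 to 931. Of 86 members, 15 had at least 10 first-exon reads in CT22 replicate 1 and at least 5 times the median of the other 7 libraries, and none did so in the last exon. This was 17.4% of members, against 10.2% of the 13746 tested genes with 2 or more exons, and for the last exon 0.226% of those genes. CT16 replicate 2 was the next highest library alone in 8 of these 15 and tied with another in 2.

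**Figure D5:**
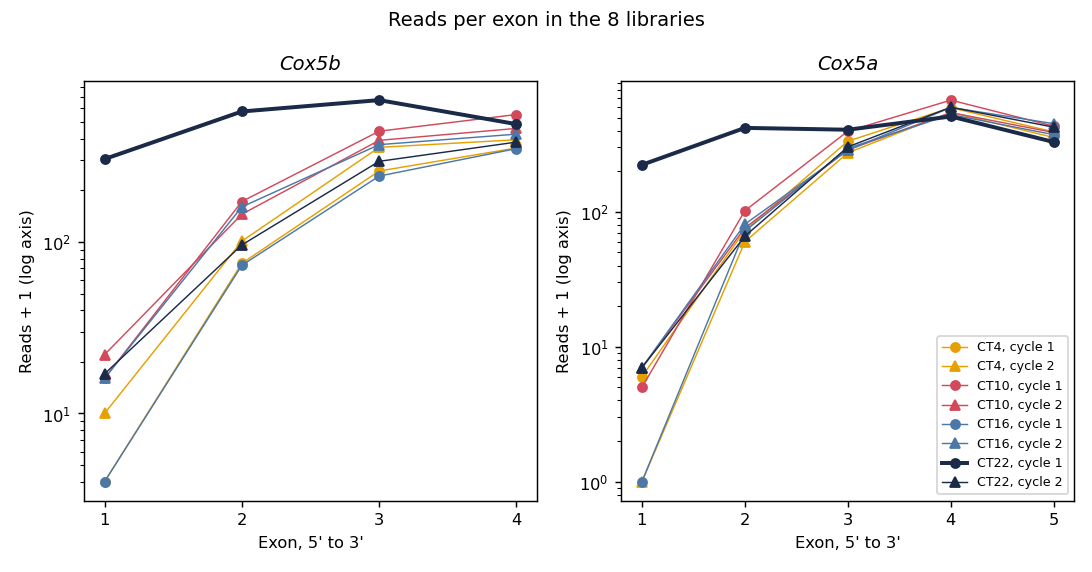
Reads per exon plus 1 (log axis) from the 5′ to the 3′ end of Cox5b (left) and Cox5a (right) in the 8 libraries; the thick line is CT22 of the first cycle. That library holds 303 and 222 reads in the first exons, where all others hold 21 or fewer, and the lines meet in the last exons.

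Summed over the 86 members, first exons held 35.2 reads per 100 last-exon reads in CT22 replicate 1, 30.0 in CT16 replicate 2, 27.9 in CT10 replicate 1 and 19.2 to 23.9 in the other 5 libraries. Over 15485 genes with 2 or more exons, the same library was highest, at 7.35 per 100, and the other 7 lay between 4.30 and 5.84. The first 200 bases of the principal transcript had a median GC content of 67.0% in the 15 members and 59.5% in the other 71, against 44.0% and 45.5% in the last 200. The 15 were picked on their reads, so this is a description without a test, and the part of GC content was not tested.

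Counted on the last exon only, 84 members could be tested, and none was called after adjustment by edgeR (9 of 13014 genes, 0.0692%). At an unadjusted p under 0.05 there were 4 with a 24-h rhythm (4.76%, against 9.05% of genes): Ndufb2, Cox7a1, Uqcrc1 and Uqcrq. On the day-night term 4 were higher by day (3.71% of genes): Cox7a1, Atp5o, Atp5g2 and Ndufa10. Ndufb2 and Uqcrq were lower by day (4.46% of genes). On the dusk-dawn term 4 were higher at dusk, Ndufa4, Atp5d, Uqcrc1 and Sdhb (5.82% of genes), and 1, Ndufaf2, was lower (2.24% of genes). CT10 had the highest mean of last-exon reads for 47 of 86 members (54.7%), against 31.7% of genes.

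Intron reads, which come mostly from unspliced RNA, numbered a median of 12.4 per 100 gene reads. Of 83 members tested none had a 24-h rhythm of intron reads after adjustment by edgeR, nor by DESeq2, while 37 of 13948 genes (0.265%) did by edgeR and 100 (0.717%) by DESeq2. At an unadjusted p, 4 members did by edgeR (4.82%, against 10.6% of genes) and 2 by DESeq2 (against 9% of genes). The lowest p was that of Sdha (0.0174, adjusted 0.353 by edgeR), with 583, 752, 699 and 636 intron reads by day, against 532, 527, 485 and 541 by night, so that every day library lay above every night library. Atp5o had 134 intron reads per 100 gene reads, over a gene model that spans chr16:91684635-91931948 on mm9, and reads of overlapping genes in that span cannot be told apart. Antisense reads were few, with at most a mean of 73.4 per library (Atp5b). Of 14 members tested, none was called by edgeR or DESeq2, adjusted or not, against 0% of 3693 antisense genes adjusted and 3.47% unadjusted by edgeR.

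Other genes of the pathway gave no adjusted call either. Of 33 assembly factors outside the rule, 14 genes of electron carriers and ubiquinone synthesis and 16 genes of the tricarboxylic acid cycle, none had an unadjusted 24-h p under 0.05 by edgeR, nor had any of 3 ATP synthase genes under other symbols. Lyrm7, an assembly factor of complex III, was lower at dusk than at dawn at an unadjusted p of 0.0460 (fold 0.791, adjusted p = 0.631). Of 12 regulators of mitochondrial biogenesis, 1 had a 24-h p under 0.05, Polrmt, the mitochondrial RNA polymerase (adjusted p = 0.571 by edgeR). Polrmt read 14.8, 15.4, 13.9 and 16.5 CPM by day, against 18.9, 21.2, 27.1 and 15.99 CPM by night. Of the night libraries, CT22 replicate 2 lay inside the day range. The highest, 27.1 CPM, was CT22 replicate 1, which stood apart in first-exon reads, and no fold of Polrmt without it is given here. The day-night fold of Polrmt was 0.730 (adjusted p = 0.491 by edgeR). Nrf1, the factor that binds the NRF1 motif, had a day-night fold of 0.855 (adjusted p = 0.643 by edgeR).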

How the data were processed

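STAR 2.3.0e and the build mm9 are named in the submitters' processing notes, and a strand-preserving polyA kit in the labels' protocols. The authors deposited whole-number read counts per gene, intron, exon and junction, together with a JTK p-value, q-value and peak time per gene. How reads were counted, and with which strand setting, is not given in the sources used here. Library totals in the deposited tables were nearly equal, from 11123610 to 11131890 sense reads.

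Counts were tested over all genes with edgeR 4.0.16 (quasi-likelihood F test, TMM scaling, Benjamini-Hochberg adjustment at 0.05) in R 4.3.3, for genes that reached 10 reads in 2 or more libraries. The fit had a day-night and a dusk-dawn term and 5 residual degrees of freedom. Terms for the cycle and for a 12-h rhythm, DESeq2 1.42.0, other scalings, no count minimum and leaving out each library were alternatives. The common biological coefficient of variation was 0.143. Intron and antisense counts used the library sizes of the sense genes. Scores used log2 CPM with a prior count of 2. For first and last exons, overlapping exons of a gene were grouped and the groups were ordered along the strand given by GENCODE. The exon of highest mean count stood for each group. A last exon could thus be a long form or a little-read one, such as that of Ndufb8 with 6 to 15 reads a library. Levels per kb used merged exons of the deposited table or GENCODE M21 principal transcripts. The members and lists were chosen with earlier results of these data known. Named genes were those of lowest 24-h p in each complex, of highest and lowest level in each complex, and of lowest p on either term. Fixed sets of paralogs and up to 3 genes of each other list were added. The first-exon examples and the cycle genes were chosen after their values were seen. Intervals cover what the libraries' spread shows, not animals. A result that needs an item withheld for evaluation is not reported here.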

Additional observations from a re-analysis of the deposited data

Results flagged for a closer look

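A total of 3 symbols of the family fell below the count minimum and entered no comparison, yet held more reads than the 3 that a count of 0 allows. Cox6a2, the muscle form of subunit 6a, had at most 12 reads in a library, Cox7b2, the testis form of subunit 7b, at most 7, and Cox8b, the muscle form of subunit 8, at most 4. These limits cover counting error only. Each group held 2 libraries, so no single library was tested as standing apart.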

How the results depend on the processing

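No paired analysis was possible because the labels give no replicate numbers. A term for the cycle, which holds 1 library of each time, was fitted instead. Of the results recomputed under settings other than leaving out 1 library, 120 values were close to the reported one and 20 moved. When each library was left out, 102 were close and 26 moved, and none reversed. With no count minimum, 3 members had an adjusted 24-h p under 0.05 and 8 an unadjusted one, 2 and 1 members were called on the day-night and dusk-dawn terms (0.661% and 1.15% of genes), and the unadjusted counts were 1 higher by day, 5 lower by day and 2 lower at dusk. The cause was not tested. The count higher by day was 1 with 10 reads in all 8 libraries (3.38% of genes) and 4 on the last exon only, an alternative chosen after seeing the data. The count lower by day was 1 with DESeq2, with RLE scaling, with no scaling, with 10 reads in all 8 libraries and with a cycle term (4.25% to 4.76% of genes). The count higher at dusk was 3 with DESeq2 and with 10 reads in all 8 libraries, (3.44% and 4.01% of genes), and 2 once the oligodendrocyte score was added (1.98%). The count lower in the second cycle was 19 with that score (2.04% of genes), 2 on the last exon (1.22%) and 0 without CT10 and CT22 replicate 1, settings added for this count after seeing the data. When each library was left out, the 24-h count ran from 2 to 10, the counts higher and lower by day from 0 to 3 and from 1 to 3, and those higher and lower at dusk from 1 to 15 and from 0 to 3, and that lower in the second cycle from 1 to 22. The median log2 change ran from 0.0014 (without CT10 replicate 1) to 0.10 (without CT22 replicate 1) by day, from 0.02 to 0.12 at dusk with the same libraries left out, and from -0.14 to -0.07 for the second over the first cycle. Pools of 3 mice at 2 libraries a time limit what could be called, and low-count members such as Cox4i2 rest on few reads.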
